A study of Mus musculus with 2 samples.

Results

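The vascular endothelial growth factor (VEGF) system was examined in cultured astrocytes of the dentate gyrus (DG), comparing the β-arr1 KO with the WT genotype. Its 10 genes were taken by name, as the 5 ligands Vegfa, Vegfb, Vegfc, Figf and Pgf, the 3 tyrosine kinase receptors Flt1, Kdr and Flt4, and the 2 neuropilins Nrp1 and Nrp2. Figf is the older symbol of the gene for VEGF-D. All 10 genes were listed in both libraries, out of 16302 gene symbols listed in at least one library and 14448 listed in both. The mice were of the C57BL/6 strain (C57BL/6J in the study's methods, for the backcross of the KO line) and were either wildtype (WT) or β-arr1 KO, that is, without a working gene for β-arrestin 1, an adaptor of G protein-coupled receptors. Both groups went through the same culture, in which cells of adult DG were grown with serum and shaken to remove dividing cells, oligodendrocyte progenitors and neurons. The study drew its mice both from littermates and from separately bred homozygous lines, and which of them gave these cells is not stated. A single library of pooled cDNA was sequenced per genotype, so that the genotypes were compared without replicate error and without a test.

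VEGF ligands are secreted dimers that act on receptor tyrosine kinases of endothelial cells. VEGF-A binds the receptors VEGFR1 (Flt1) and VEGFR2 (Kdr), and VEGF-B and placental growth factor (Pgf) bind VEGFR1. VEGF-C and VEGF-D bind VEGFR3 (Flt4), the receptor of lymphatic vessels, and VEGF-C also binds VEGFR2. Neuropilins lack a kinase domain, and serve as co-receptors both for VEGFs and for class 3 semaphorins. Astrocytes are a known source of VEGF-A in the brain, and VEGF-A and VEGF-C have been linked to the proliferation of neural precursors in the adult hippocampus. These points are background and were not measured here.

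The KO library held more Vegfa and Flt1 mRNA and less Vegfc and Figf mRNA than the WT library. Levels are given in FPKM, the number of sequenced fragments of a gene relative to the length of its transcript and to the size of the library. Vegfa was at 30.3 (WT) and 46.8 FPKM (KO), and Flt1 was at 4.07 and 6.97 FPKM. Vegfc was at 4.93 (WT) and 2.98 FPKM (KO), and Figf was at 5.88 and 3.49 FPKM. The other 6 genes lay between the limits that the study uses for a changed gene, a ratio of KO vs. WT above 3/2 or below 2/3. Of the 10 genes, 4 were thus past a limit, 2 in each direction. Among all 12171 genes listed in both libraries and reaching 1 FPKM in either, 14.6% were past either limit, 7.9% above 3/2 and 6.74% below 2/3. With genes listed in only one library included, where a missing gene counts as 0, the share past either limit was 17.8%. The share also depended on the level. Among genes of 5 to 10 FPKM in the higher library, where Flt1 and Figf lay, 7.51% were above 3/2 and 5.85% below 2/3, and among genes of 10 to 50 FPKM, where Vegfa lay, 4.54% and 3.92%. Vegfc lay among the genes of 1 to 5 FPKM, of which 13.2% were below 2/3.

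**Figure D1:**
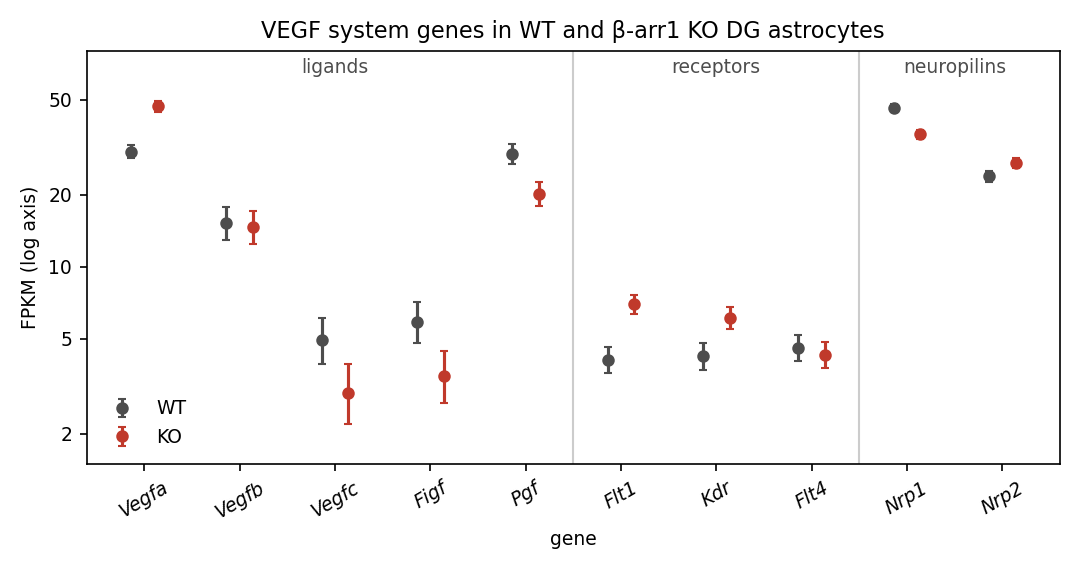
FPKM (log axis) of the 10 genes in the WT library (grey) and the KO library (red), 1 library per genotype. Bars are exact 95% Poisson intervals for counting error alone. Vegfa (30.3 and 46.8 FPKM) and Flt1 (4.07 and 6.97 FPKM) are higher in KO, and Vegfc and Figf are lower.

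The upstream sequences of the 4 genes past a limit are shown to give the regulatory context of the members that differed most. They were taken from RefSeq on GRCm38.p6, a later build than the mm9 coordinates of the expression tables, for all 10 genes. The 250 bases before the RefSeq start (the most upstream of those listed for Vegfa and Pgf) were searched on both strands for the TATA box (TATAAA), the GC box (GGGCGG), the hypoxia response core (ACGTG) and the cAMP response core (TGACGTCA). No match of 1 motif overlapped a match of another in the stretches printed. Capitals mark these matches, and positions count back from the base before the start (-1). Vegfa is shown from chr17:46032378-46032627 (minus strand), Figf from chrX:164373272-164373521 (plus strand), Vegfc from -250 to -81, chr8:54077282-54077451 (plus strand), and Flt1 as the 30 bases from -92 to -63 around its cAMP response core, chr5:147726074-147726103 (minus strand).
Vegfa: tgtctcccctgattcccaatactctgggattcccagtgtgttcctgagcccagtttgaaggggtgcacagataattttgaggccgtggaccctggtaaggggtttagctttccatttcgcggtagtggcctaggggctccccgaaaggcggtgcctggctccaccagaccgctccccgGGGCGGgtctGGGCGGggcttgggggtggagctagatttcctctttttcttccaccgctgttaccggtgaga
Flt1: gggggacccctTGACGTCActggaaggagg
Vegfc: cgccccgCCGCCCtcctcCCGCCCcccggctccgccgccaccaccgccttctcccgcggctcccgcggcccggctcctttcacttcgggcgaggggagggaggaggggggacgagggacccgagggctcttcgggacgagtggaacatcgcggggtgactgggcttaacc
Figf: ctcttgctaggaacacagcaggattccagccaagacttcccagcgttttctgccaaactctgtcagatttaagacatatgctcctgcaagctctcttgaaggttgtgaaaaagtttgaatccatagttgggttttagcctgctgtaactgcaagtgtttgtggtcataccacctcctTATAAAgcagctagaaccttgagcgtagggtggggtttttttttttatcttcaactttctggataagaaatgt

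The Figf window stood apart in base composition. Its GC content was 42.4%, with 2 CpG dinucleotides, whereas the windows of the other 9 genes had 59.2% (Vegfa) to 76.4% (Vegfb) and 11 to 32 CpG dinucleotides. The median over 32851 RefSeq promoter windows of the same length was 52.4% and 6 CpG dinucleotides. GC boxes were found in 9 of the 10 windows, all but that of Figf, and in 32.7% of all windows. TATAAA was found in 2 windows, at -73 in Figf and at -31 in Flt1, against 12.4% of all windows. The Flt1 window alone held TGACGTCA, at -81, and 1.55% of all windows held it. None of the 10 windows held ACGTG, which was present in 16.6% of all windows. The well-known hypoxia response element of Vegfa lies further upstream than these windows reach. Such matches describe letters in a window and do not show binding. The Vegfc row of WT and the Flt1 rows reached beyond the annotated gene, so that some bases of these windows may be transcribed. For that reason only parts of both are shown. The Flt1 part may still be transcribed, since the KO row ended at 148537847 and the annotated gene at 148537587. The Figf rows also began before the annotated start of 160811310, at 160811283 (WT) and 160811298 (KO). Some bases of the Figf window, which is shown whole, may thus be transcribed too. The Vegfb row of WT and the Pgf rows likewise passed the annotated start of their genes.

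The libraries were checked before the members were compared. Arrb1, the gene of β-arr1, was at 7.62 (WT) and 2.72 FPKM (KO), a ratio of 0.358 in the direction of the labels. All 10 astrocyte markers examined were listed in both libraries, and Gfap was at 189 and 192 FPKM. The cultures also held microglial transcripts, with Csf1r at 146 (WT) and 135 FPKM (KO). Low FPKM values fell on steps of whole fragments, which gave about 9.54 M mapped fragments in WT and 9.82 M in KO. The interval of each ratio below is an exact 95% Clopper-Pearson interval for counting error from fragments so estimated, and it does not cover differences between mice or cultures. It left out 1 for 8 of the 10 members and for 40.9% of 11841 genes listed in both libraries with an annotated length. No member had its whole interval past a limit, and the share of all genes for which this held was not computed. The KO library listed 4 Y-linked genes (8.44 FPKM in sum) and the WT library 0, while Xist, an RNA of female cells, was at 39.4 (WT) and 29.7 FPKM (KO). The KO library thus held both Y-linked transcripts and Xist, and a difference in the mix of sexes and the genotype cannot be told apart in these 2 libraries.

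**Figure D2:**
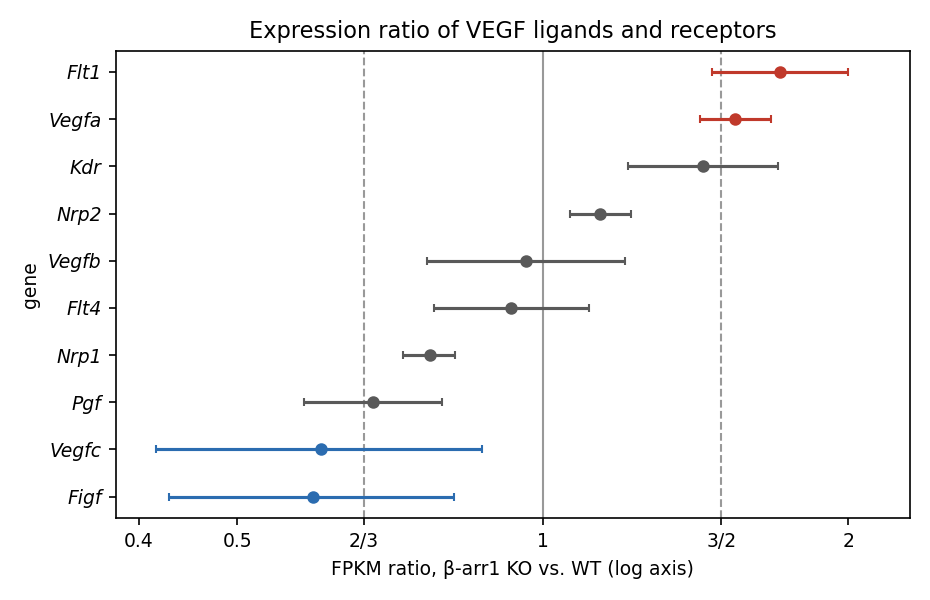
Ratio of FPKM, KO vs. WT (log axis), of each of the 10 genes, ordered by ratio. Bars are 95% intervals for counting error alone, dashed lines are the limits 2/3 and 3/2, red marks genes above 3/2 and blue marks genes below 2/3. Flt1 (1.71) and Vegfa (1.55) lie above the upper limit, and Figf (0.594) and Vegfc (0.604) below the lower one.

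Among the ligands, the value of Vegfa (NCBI gene 22339) rested on the most fragments. It lies on the minus strand of chromosome 17 of mm9 from 46153943 to 46169326, with the same bounds in both libraries, and GENCODE lists 14 transcripts of it. Its ratio was 1.55 (interval, 1.43 to 1.68), or 0.63 on the log2 scale, from an estimated 969 fragments in WT and 1545 in KO. The deposited value is 1 number per gene, so that the splice forms of VEGF-A, which differ in their binding to heparan sulfate, were not separated.

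Pgf (NCBI gene 18654), which encodes placental growth factor, went the other way. It lies on chromosome 12 from 86507589 to 86518263 in both libraries. Its level was 29.6 FPKM in WT, close to that of Vegfa, and 20.2 FPKM in KO. The ratio of 0.681 (interval, 0.582 to 0.795, from 399 and 280 fragments) lay just inside the lower limit, and its interval left out 1.

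Vegfc (NCBI gene 22341) and Figf (NCBI gene 14205) encode the ligands of the lymphatic receptor. Vegfc, on chromosome 8, had a ratio of 0.604 (interval, 0.416 to 0.871) from only 80 and 50 fragments. Figf, on chromosome X, had a ratio of 0.594 (interval, 0.428 to 0.818) from 105 and 64 fragments. In mm9 the Vegfc row ran to 55271808 from 55162807 (WT) or 55162886 (KO), and the Figf row to 160840579 from 160811283 (WT) or 160811298 (KO), both on the plus strand. Both genes were low, and both intervals took in the limit of 2/3. Fragments scaled to the shortest coding transcript in place of the longest gave intervals that included 1, from 0.303 to 1.17 for Vegfc and from 0.305 to 1.12 for Figf. Of 430 X-linked genes at 1 FPKM or more listed in both libraries, 7.44% were below 2/3.

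Vegfb (NCBI gene 22340), on chromosome 19 from 7056962 to 7062182 in WT, encodes a ligand of VEGFR1. It was at 15.2 (WT) and 14.7 FPKM (KO). The ratio of 0.963 had an interval of 0.769 to 1.21, so that no difference was detectable at this depth.

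The make-up of the ligand mRNA differed more than its total. The 5 ligands summed to 85.9 (WT) and 88.1 FPKM (KO), a ratio of 1.03. Vegfa made up 35.2% of this sum in WT and 53.2% in KO, and Pgf 34.5% and 22.9%. The share of Vegfc was 5.73% in WT and 3.38% in KO, and that of Figf 6.85% and 3.96%. Proportions between genes within a library do not depend on how the libraries are scaled to each other. These proportions were chosen after the levels had been seen, and their intervals are exact conditional ones for counting error. Vegfa was 1.02 times as high as Pgf in WT and 2.32 times as high in KO, a 2.27-fold difference (interval, 1.91 to 2.71). Vegfa was 6.14 times as high as Vegfc in WT and 15.7 times as high in KO, a 2.56-fold difference (interval, 1.76 to 3.76). The proportion of Vegfc to Figf was nearly the same, at 0.838 in WT and 0.852 in KO (interval of the fold, 0.617 to 1.67). Summed by receptor, the ligands of VEGFR1 (Vegfa, Vegfb and Pgf) were at 75.1 and 81.7 FPKM, and the ligands of VEGFR3 (Vegfc and Figf) at 10.8 and 6.47 FPKM.

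**Figure D3:**
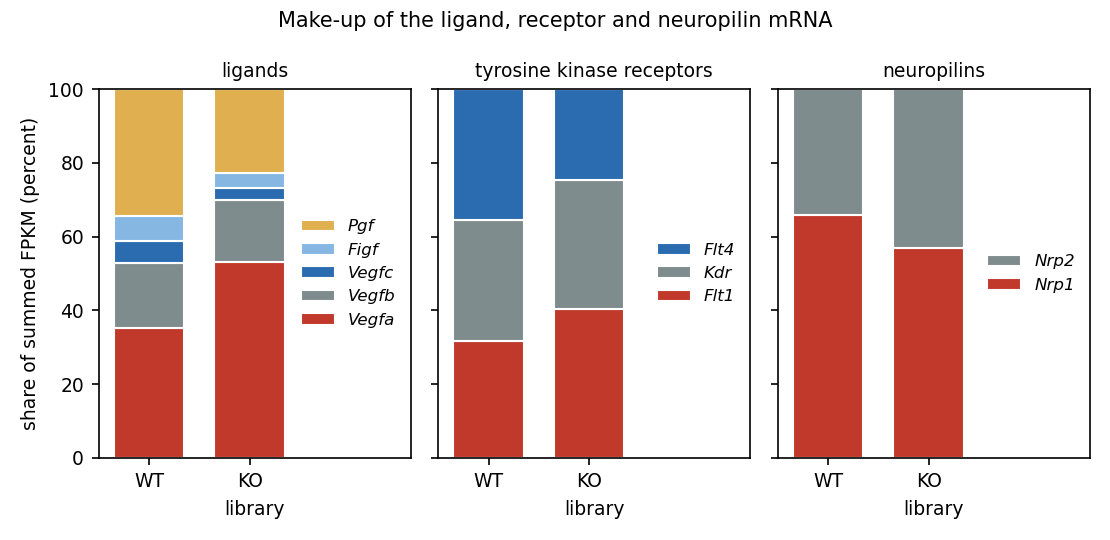
Share of summed FPKM (percent) that each ligand, tyrosine kinase receptor and neuropilin made up in the WT and KO libraries, 1 library each. Vegfa takes 35.2% of the ligand sum in WT and 53.2% in KO, Flt4 takes 35.5% and 24.6% of the receptor sum, and Nrp1 takes 65.9% and 56.8% of the neuropilin sum.

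The 3 receptors were at nearly equal levels in WT and were spread in KO. Flt1 (NCBI gene 14254), on chromosome 5 from 148373772, encodes VEGFR1, a receptor that also has a soluble form that traps ligand. At 4.07 (WT) and 6.97 FPKM (KO), it had the highest ratio of the 10 genes, 1.71 (interval, 1.47 to 2.0, from 261 and 460 fragments). Its row ended at 148537641 (WT) or 148537847 (KO), and soluble and membrane forms were not separated.

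Kdr (NCBI gene 16542), on chromosome 5 from 76328877 to 76374453 in WT, encodes VEGFR2, the main signalling receptor for VEGF-A. It was at 4.23 (WT) and 6.09 FPKM (KO). The ratio of 1.44 (interval, 1.21 to 1.71, from 232 and 344 fragments) lay just inside the upper limit. Flt4 (NCBI gene 14257), on chromosome 11 from 49423167 to 49466241 in WT, encodes VEGFR3. At 4.58 and 4.26 FPKM it had a ratio of 0.931, with an interval of 0.781 to 1.11 that included 1.

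Within a library, Flt1 was 0.889 times as high as Flt4 in WT and 1.63 times as high in KO, a 1.84-fold difference (interval, 1.45 to 2.33). Kdr was 0.925 times as high as Flt4 in WT and 1.43 times as high in KO, a 1.54-fold difference (interval, 1.21 to 1.98). Flt1 and Kdr were not told apart in this way, with a 1.19-fold difference whose interval of 0.944 to 1.5 included 1. The proportion of Vegfa to Flt1 was 7.43 in WT and 6.72 in KO, also with an interval that included 1 (0.758 to 1.08).

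The neuropilins were the most abundant of the receptors. Nrp1 (NCBI gene 18186), on chromosome 8 from 130882973 to 131029375 in both libraries, was at 46.2 (WT) and 35.7 FPKM (KO). Its ratio of 0.774 lay between the limits, with a narrow interval (0.729 to 0.821) from 2528 and 2013 fragments. Nrp2 (NCBI gene 18187), on chromosome 1 from 62749891 to 62865266 in both libraries, was at 23.9 (WT) and 27.2 FPKM (KO), a ratio of 1.14 (interval, 1.06 to 1.22). Nrp1 was thus 1.94 times as high as Nrp2 in WT and 1.31 times as high in KO, a fold of 0.679 (interval, 0.619 to 0.744). Among the WT rows, that of 4930487H11Rik (1.01 FPKM) overlapped the Nrp2 span.

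The order of the 10 levels was compared within each library. In WT, Nrp1 was highest, followed by Vegfa, Pgf, Nrp2, Vegfb, Figf, Vegfc, Flt4, Kdr and Flt1. The intervals of Vegfa and Pgf overlapped there, as did those of each pair of neighbours from Figf down to Flt1. In KO, Vegfa was highest, followed by Nrp1, Nrp2, Pgf, Vegfb, Flt1, Kdr, Flt4, Figf and Vegfc. Neighbours with overlapping intervals in KO were Flt1 and Kdr, Flt4 and Figf, and Figf and Vegfc. Among all rows of a library, Vegfa stood above 84.2% of the values in WT and above 90.1% in KO, and Flt1 above 38.3% and 49.3%.

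**Figure D4:**
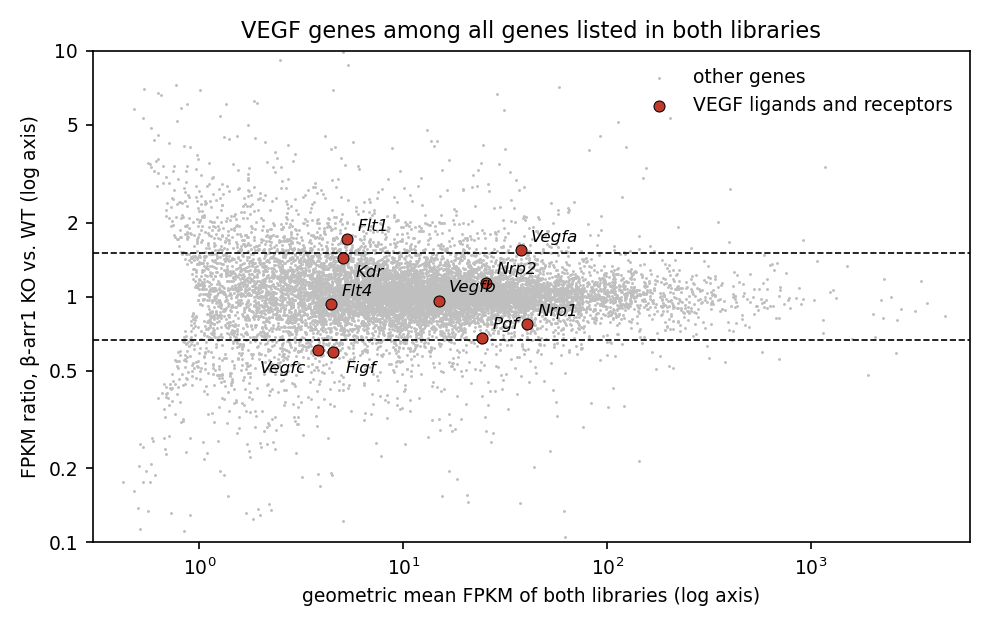
Ratio of FPKM, KO vs. WT, against the geometric mean FPKM of both libraries (log axes) for the 12171 genes listed in both libraries and reaching 1 FPKM in either (grey), with the 10 VEGF genes in red and the limits 2/3 and 3/2 dashed. Of them, 35 genes lie outside the ratio axis. Vegfa and Flt1 lie above the upper line, Vegfc and Figf below the lower one, and Pgf (0.681) and Kdr (1.44) just inside.

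Flt1, Kdr and Flt4 are best known from endothelial cells, so endothelial markers were examined beside them. In a culture sequenced in bulk, fewer cells of a type and less RNA per cell cannot be told apart. Of 15 endothelial markers, 11 were listed in both libraries and reached 1 FPKM in either. The ratio was over 1 in 8 of them and under 1 in 3. It was above 3/2 for Pecam1 and Erg and below 2/3 for Cdh5, against 7.9% and 6.74% of all genes. Erg was at only 0.667 (WT) and 1.16 FPKM (KO), and its interval of 0.985 to 3.19 included 1. Pecam1, a junction protein of endothelial and some blood cells, was at 3.03 (WT) and 5.22 FPKM (KO), a ratio of 1.72 (interval, 1.33 to 2.24). Flt1 was 1.34 times as high as Pecam1 in both libraries, a fold of 0.995, and the fold was 0.836 for Kdr and 0.541 for Flt4. Relative to Cdh5, which encodes VE-cadherin and was at 31.8 (WT) and 16.1 FPKM (KO), the fold for Flt1 was 3.38. Relative to Tie1, Esam and Emcn, the fold for Flt1 was 1.19, 1.46 and 1.48, so that it depended on the marker. The 15 markers summed to 104.9 (WT) and 105.2 FPKM (KO), a sum that Cdh5, Esam and Emcn led. In this sum the lower level of Cdh5 offset higher levels of other markers. Egfl7 (1.46), Mfsd2a (1.46), Vwf (1.497) and Tie1 (1.44) lay between the limits, with ratios near that of Kdr (1.44). The interval of Tie1, 0.916 to 2.3, included 1. Beside Cdh5, the ratio was under 1 for Cldn5 (0.672) and Sox18 (0.946), both with intervals that included 1. Tek, Robo4 and Sox17 were under 1 FPKM in both libraries, and Slco1a4 was listed in WT only, at a locus where the KO library listed Slco1a5. The part of endothelial cells in the receptor levels was not tested.

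**Figure D5:**
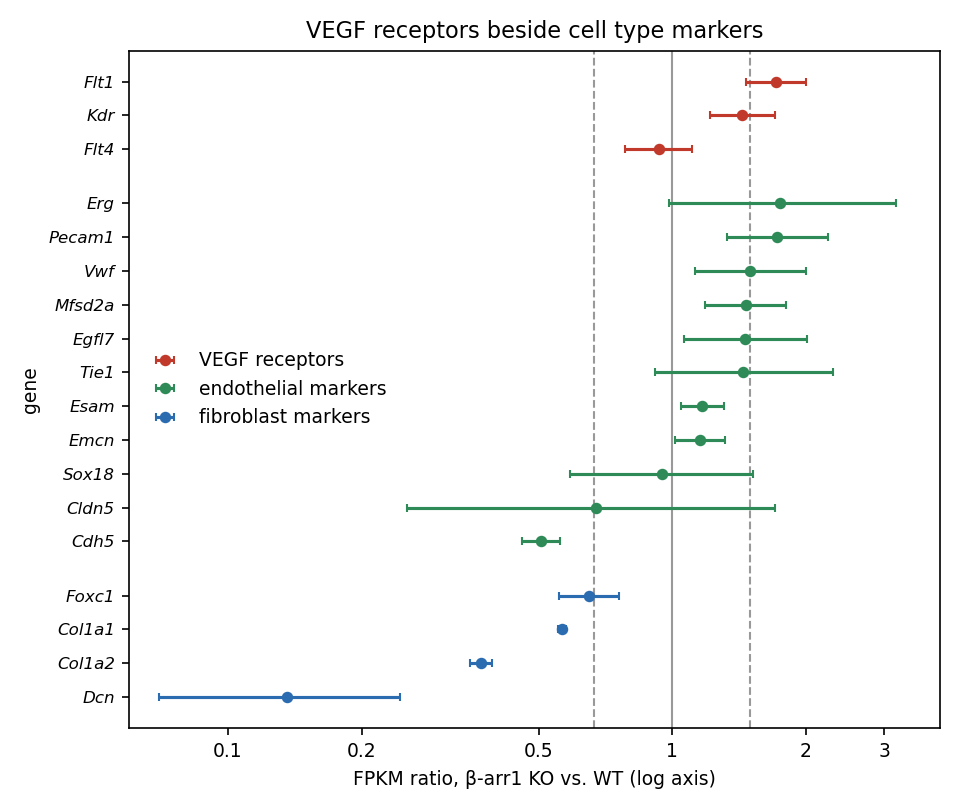
Ratio of FPKM, KO vs. WT (log axis), of the 3 VEGF receptors (red), 11 endothelial markers (green) and 4 fibroblast markers (blue), with 95% intervals for counting error alone and the limits dashed. Flt1 (1.71) lies beside Pecam1 (1.72) and at a higher ratio than Esam (1.17) and Emcn (1.15). Cdh5 (0.507) and the 4 fibroblast markers lie below the lower limit.

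Markers of other cell types also differed between the libraries. Beside the lower Vegfc, Figf and Pgf, all 4 meningeal fibroblast markers that could be compared were below 2/3, against 6.74% of all genes. They were Dcn (6.11 and 0.831 FPKM, a ratio of 0.136), Col1a2 (0.371), Col1a1 (0.564) and Foxc1 (0.648). The 6 markers of this list summed to 531 (WT) and 279.9 FPKM (KO). Microglial markers ranged from 0.738 to 1.05 in ratio and summed to 730.3 (WT) and 595 FPKM (KO). Of these markers, 0 of 8 were past a limit, a count too small to be set apart from the 14.6% of all genes. Of 7 oligodendrocyte lineage markers, 4 were above 3/2, against 7.9% of all genes, among them Olig1 (32.6 and 56.0 FPKM) and Olig2 (6.19 and 13.1 FPKM). Astrocyte markers were above 3/2 in 4 of 10, again beside 7.9% of all genes, including Aqp4 (7.05 and 13.5 FPKM), while Gja1 (ratio 0.862) and Glul (0.742) were lower in KO but between the limits. Their sum was 396 (WT) and 419.9 FPKM (KO). Of 5 pericyte and smooth muscle markers compared, 1 was below 2/3, against 6.74% of all genes. It was Rgs5, at a ratio of 0.615, while Acta2 was at 2478 (WT) and 2469 FPKM (KO). Anpep (ratio 0.723) was also lower in KO but between the limits. Des (29.7 and 41.9 FPKM) and Myh11 (40.4 and 56.6 FPKM) were higher in KO, likewise between the limits, and their intervals left out 1. Neuronal markers were mostly under 1 FPKM, except Stmn2 (36.6 and 43.4 FPKM) and, in WT, Syp (1.09 FPKM). How far these cell types carried the differences in VEGF genes was not tested.

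The semaphorin partners of the neuropilins were compared next. Of 12 genes for class 3 semaphorins and plexins, 11 reached 1 FPKM, and 0 of 11 were past a limit, a count too small to be set apart from the 14.6% of all genes, with ratios from 0.725 (Sema3e) to 1.27 (Plxna4). Sema3e, a ligand of plexin D1, was at 26.2 (WT) and 19.0 FPKM (KO), and Plxnd1 was at 10.4 and 13.2 FPKM. Their median log2 ratio was -0.04, against 0.02 over all genes listed in both libraries. Here and below, medians are of log2((KO + 0.1)/(WT + 0.1)).

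Signal transducers below the VEGF receptors were largely between the limits as well. Of 44 such genes compared, 2 were above 3/2 and 1 was below 2/3, against 7.9% and 6.74% of all genes. The median log2 ratio was 0.04. Prkca, a protein kinase C that acts below phospholipase C gamma, was at 9.12 (WT) and 18.1 FPKM (KO), a ratio of 1.98 (interval, 1.81 to 2.17). Sphk1, which makes sphingosine 1-phosphate, was at 7.15 and 13.8 FPKM, a ratio of 1.92. Nfatc4, a transcription factor activated by calcineurin, was at 5.37 and 2.70 FPKM, a ratio of 0.502. Plcg1, the phospholipase that binds activated VEGFR2, had a ratio of 1.00 at 16.2 FPKM in both libraries. Nos3, the endothelial nitric oxide synthase, was under 1 FPKM in both (0.159 and 0.484 FPKM). Mapk14 was listed in WT only, at a locus that the KO library gave as Mapk13, and was left out of these counts.

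Vegfa is a classical target of hypoxia-inducible factors, and the genes of oxygen sensing were examined for that reason. Of 9 such genes compared, 1 was above 3/2 and 0 were below 2/3, against 7.9% and 6.74% of all genes. Their median log2 ratio was 0.03. Hif1a was at 27.0 (WT) and 27.3 FPKM (KO), and Epas1, which encodes HIF-2α, was at 50.3 and 64.6 FPKM, a ratio of 1.29. The gene above 3/2 was Egln3, an oxygen-dependent prolyl hydroxylase that is itself a hypoxia target, at 5.23 and 8.83 FPKM (ratio 1.69, interval 1.35 to 2.12). Of 20 other hypoxia targets, 2 were above 3/2 and 2 were below 2/3, beside the same 7.9% and 6.74% of all genes. Their median log2 ratio was 0.03. Pgk1, a glycolytic enzyme, was at 57.2 and 113 FPKM (ratio 1.98), and P4ha1, a collagen prolyl hydroxylase, at 50.9 and 77.9 FPKM (ratio 1.53). P4ha2, its paralog, was at 26.2 (WT) and 15.6 FPKM (KO, ratio 0.598), and Car12 had a ratio of 0.545 at a low level. The ratio was over 1 in 11 of these 20 genes and under 1 in 9, with Slc2a1 at 1.20, Ldha at 1.06, Bnip3l at 0.861 and Ddit4 at 0.775. Car9 was listed in WT only, at 9.89 FPKM.

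Proteins that process or bind VEGFs outside the cell were described next. Of 17 such genes compared, 2 were above 3/2 and 4 were below 2/3, against 7.9% and 6.74% of all genes. The median log2 ratio was -0.20. Pcsk5, one of the proprotein convertases that cleave VEGF-C and VEGF-D, was at 4.28 (WT) and 1.07 FPKM (KO, ratio 0.250, interval 0.187 to 0.331). Furin, another of these convertases, lay between the limits at 40.5 and 35.1 FPKM. Ccbe1, a cofactor of VEGF-C maturation, was at 0.978 and 2.09 FPKM (ratio 2.13, interval 1.5 to 3.07), and Adamts3, the protease that it assists, was at 0.368 and 0.386 FPKM. Adamts14, a procollagen protease related to Adamts3, was at 6.41 and 10.2 FPKM (ratio 1.60). Mmp2, a gelatinase, was at 137 (WT) and 50.9 FPKM (KO, ratio 0.371), and Thbs2, a matrix protein that inhibits angiogenesis, at 46.1 and 22.3 FPKM (ratio 0.483). The fourth gene below 2/3 was Dcn, given above among the fibroblast markers. Thbs1, at 1294 and 1732 FPKM, lay between the limits, with a ratio of 1.34. Mmp3 was listed in KO only, at a locus where the WT library listed Mmp10, and Mmp9 was listed in WT only.

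Relatives of the VEGF family were examined last. Of 10 genes of the PDGF, angiopoietin and apelin systems compared, 2 were above 3/2 and 0 were below 2/3. The shares over all genes were 7.9% and 6.74%. The median log2 ratio of these 10 genes was 0.20. Apln, which encodes the vascular peptide apelin, was at 4.997 (WT) and 9.72 FPKM (KO, ratio 1.95, interval 1.59 to 2.40). Pdgfra, a receptor of oligodendrocyte precursors, was at 3.12 and 6.03 FPKM (ratio 1.93), and it is also among the oligodendrocyte lineage markers. Angpt2, at 48.7 and 52.4 FPKM, and Pdgfa, at 59.1 and 72.5 FPKM, lay between the limits. Pdgfrb was not listed under that symbol in either library and could not be compared.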

How the data were processed

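Gene expression was measured by RNA sequencing in 1 WT and 1 β-arr1 KO library of cultured DG astrocytes, and the genotype was taken from the sample labels. The authors aligned paired reads to mm9 with TopHat (1.4.0 in the submitters' processing notes), ran Cufflinks and deposited 1 FPKM value per gene, which the length of the transcript and the size of the library have scaled. Tables were joined by symbol, keeping the highest of rows that share one, and a gene missing from one table was set to 0. A value of 1 was added to each start, since starts then equalled those of GENCODE (NCBIM37) in 38.4% of WT rows and 38.7% of KO rows, against 3.04% and 3.10% as written.

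Ratios (KO vs. WT) were taken on FPKM as deposited, with no pseudocount, and counts of genes used those that reached 1 FPKM in either library. Depth was estimated from single-transcript genes longer than 1000 bases and under 0.15 FPKM (416 in WT and 435 in KO), of which 69.2% and 69.9% lay within 5% of a step of 1, 2 or 3 fragments, with 170 bases taken off each length. Fragments per gene rest on the longest GENCODE transcript. Multiply mapped reads, and rows whose bounds differ between the libraries (6 of the 10 members), are not covered by the intervals. The steps were tested on simulated data with known depth and ratios.

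The members and gene lists were chosen with earlier results of these data known. Every member was named. Of each pathway list, the rule took up to 3 genes in each direction past a limit with at least 5 FPKM in the higher library, and the other list genes in the text were chosen after their values were seen. Alternatives were other minimums, limits of 2 and 1/2, pseudocounts, 3 ways of rescaling, summed rows, summed overlapping loci and the shortest coding transcript. The background over genes listed in both tables was added after seeing the data. Tools were scipy 1.17.1, numpy 2.4.6, matplotlib 3.10.9 and pandas 2.3.3, under Python 3.11.15.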

Additional observations from a re-analysis of the deposited data

How the results depend on the processing

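The ratios of the 10 genes were recomputed with pseudocounts of 0.1 and 1 FPKM, 3 ways of rescaling the libraries, rows sharing a symbol summed and overlapping loci summed. All 10 kept their direction under these 7 settings, and 9 kept their side of the limits. The exception was Vegfc, which was at 0.671 with a pseudocount of 1 FPKM, a setting that pulls low values towards 1. Across the settings Vegfa ranged from 1.53 to 1.55, Flt1 from 1.57 to 1.72, Figf from 0.586 to 0.653 and Pgf from 0.672 to 0.691. When fragments were scaled to the shortest coding transcript, 6 intervals left out 1 in place of 8. The share of all genes was computed for the longest transcript only (40.9%), so the 6 have no share to be set against.

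Of all 12646 genes reaching 1 FPKM in either library, 2256 were past a limit. The number was 3969 of 15260 with a minimum of 0.1 FPKM, 4830 of 16302 with none and 1179 of 9397 with a minimum of 5 FPKM. It was 1372 of 11622 with at least 1 FPKM in both libraries and 1163 of 12646 with limits of 2 and 1/2. With limits of 2 and 1/2, none of the 10 VEGF genes would be past one, since their ratios lay between 0.594 and 1.71. Such a count is too small to be set apart from the 1163 of 12646 among all genes. The median log2 ratios of the 6 pathway lists ran from -0.20 to 0.20 with a pseudocount of 0.1 FPKM and from -0.20 to 0.19 with 1 FPKM. No paired analysis was possible because each genotype has 1 library. Low fragment numbers limit Vegfc (80 and 50) and Figf (105 and 64) most, and no value here carries an error between mice.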
